A study of Mus musculus with 2 samples.

Results

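The AP-1 and BATF transcription factors were followed in CD8+ T cells 72 h after activation and in naive CD8+ T cells. The family was represented by 9 genes: Fos, Fosb, Fosl1 and Fosl2, Jun, Junb and Jund, and Batf and Batf3. Its members were found by name, as the probe sets whose platform annotation gives 1 gene only, which yielded 13 of the 45037 probe sets other than controls. These 9 genes stood among 18193 genes with such a probe set, and 0 probe sets with several symbols named a member. Both RNA pools came from purified CD8+ T cells of pmel-1 mice, whose T cells bear a transgenic receptor for a melanocyte protein, a transgene shared by the activated and the naive group. Each pool combined 4 independent experiments and was hybridised to 1 Affymetrix mouse whole-genome array. The activated cells were described as proliferating, and the sources used here do not give the stimulus, the source organ or the age of the mice.

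AP-1 is a dimer of proteins with a basic region that holds DNA and a leucine zipper that pairs the partners. Jun proteins can pair with one another or with Fos proteins, whereas Fos proteins need a partner. Fos and Jun messages appear within minutes of T cell receptor signalling and are short-lived, and their products bind beside NFAT at cytokine genes. BATF and BATF3 lack a separate activation domain, pair with Jun proteins, and bind beside IRF4 or IRF8 at composite DNA sites.

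With 1 pooled array for each group replicates were lacking, which leaves every difference below without an error between replicates and untested. Precision is limited by the number of arrays. Values are model-based intensities on a linear scale, which can be compared between the arrays for the same probe set but not between probe sets. A probe set counted as measured when at least 1 array reached an intensity of 100. It was called higher or lower by the size rule when activated and naive intensities differed by more than 100 and by at least 1.4-fold, any value under 100 being set to 100 before the ratio was taken. A ratio with 1 array under 100 is therefore a lower bound. Of the 9 members, 7 were measured and 2 lay under 100 on both arrays. Where a gene had several probe sets, the one brightest on average across the arrays stood for it.

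The family did not move as a block: among the 7 measured members, 2 were higher in activated cells (Batf3 and Batf), 2 were lower (Fos and Jun), and 3 did not pass the size rule (Fosl2, Junb and Jund). Over all 9842 measured genes, 23.7% were called higher and 20.6% lower. The members' shares of 28.6% in each direction lay near this background, so that the counts by themselves set the family apart in neither direction. The members' median log2 ratio was 0.42, that of Jund, against 0.01 over all measured genes, whose quartiles were -0.45 and 0.51. It was 0.15 with quantile normalization, 0.22 with loess scaling, 0.18 with a floor of 50 and 0.17 with a floor of 200. The description below therefore rests on the single members and not on their number.

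The DNA ahead of the 4 members past the size rule is shown first, because Fos and Jun were called in one direction and Batf and Batf3 in the other. The sequences run 5′ to 3′ from 250 bases before to 50 bases after the annotated start and were taken from RefSeq, build GRCm38.p6, which held an entry for 8 of the 9 members. Capitals mark matches on either strand to the AP-1 site TGANTCA, the cyclic AMP response element TGACGTCA, its shortened form TGACG, the Jun-type site TGACATCA, the CArG box bound by serum response factor, or the TATA motif TATAAA.
Fos (chr12:85473640-85473939, plus strand): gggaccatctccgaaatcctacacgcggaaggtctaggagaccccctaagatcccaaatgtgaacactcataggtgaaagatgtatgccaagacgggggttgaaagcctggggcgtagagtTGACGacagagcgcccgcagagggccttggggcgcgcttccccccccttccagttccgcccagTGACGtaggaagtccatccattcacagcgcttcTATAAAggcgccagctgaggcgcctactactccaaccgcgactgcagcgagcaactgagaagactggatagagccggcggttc
Jun (chr4:95052173-95052472, minus strand): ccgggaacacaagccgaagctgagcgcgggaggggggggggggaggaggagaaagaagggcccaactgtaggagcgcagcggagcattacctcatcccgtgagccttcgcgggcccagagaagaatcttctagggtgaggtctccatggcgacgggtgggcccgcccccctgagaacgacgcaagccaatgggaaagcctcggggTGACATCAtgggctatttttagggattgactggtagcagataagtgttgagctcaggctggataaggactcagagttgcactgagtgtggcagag
Batf (chr12:85686470-85686769, plus strand): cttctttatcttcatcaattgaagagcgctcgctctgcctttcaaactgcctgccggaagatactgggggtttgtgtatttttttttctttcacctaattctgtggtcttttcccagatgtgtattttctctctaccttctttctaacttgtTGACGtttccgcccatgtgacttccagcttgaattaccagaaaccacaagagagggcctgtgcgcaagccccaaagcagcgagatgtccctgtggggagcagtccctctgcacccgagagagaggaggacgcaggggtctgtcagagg
Batf3 (chr1:191098164-191098463, plus strand): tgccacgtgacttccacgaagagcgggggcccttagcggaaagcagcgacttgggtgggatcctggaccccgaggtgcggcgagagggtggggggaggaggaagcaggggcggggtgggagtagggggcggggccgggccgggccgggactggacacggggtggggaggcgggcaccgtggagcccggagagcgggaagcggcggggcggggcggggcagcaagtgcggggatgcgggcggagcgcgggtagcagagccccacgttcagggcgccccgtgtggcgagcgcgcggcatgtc

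Matches to the full AP-1 site TGANTCA, to TGACGTCA and to the CArG box were found in 0 of the 8 member windows. These motifs were present in 7.81%, 1.79% and 1.63% of all 32851 windows of this length in the table, and in 4.87%, 3.11% and 1.22% of those of measured genes. TGACATCA was found only in the Jun window among the 8, at positions -45 to -38 from the start, and 3.62% of all windows held it. A site of this form in the Jun promoter is known as one through which Jun and ATF2 proteins act on the gene. Among the 10219 windows of measured genes the share with TGACATCA was 1.69%. The shorter TGACG, which is also part of TGACGTCA, was found in the windows of Fos, Fosb, Junb and Batf, that is in 4 of 8, and in 20.8% of all windows and 32.4% of those of measured genes. In Fos it lay at -129 to -125 and at -66 to -62, and in Batf at -98 to -94. TATAAA was found in the Fos window at -33 to -28 and in the Junb window at 1 to 6, beginning at the annotated start. It was found in 13.6% of all windows and 7.13% of those of measured genes. The Batf3 window held none of these letters. The 2 lower genes and the 2 higher genes thus shared no motif of this set within their direction. A match or its absence describes the letters of these windows only, and not the whole promoter.

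Among the Fos proteins, which need a Jun partner to bind DNA, only Fos itself passed the size rule. Fos, the founding immediate early gene of the group, had an intensity of 87.4 in activated cells and 528 in naive cells. It was thus under the level of 100 on the activated array and well above it on the naive array, which made it at least 5.28-fold lower in activated cells (log2 ratio of -2.40, a lower bound). The value rests on 1 probe set.

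Fosl2 encodes Fra-2, a Fos-related protein without the strong activation domain of Fos, and its brightest probe set had 225 in activated cells and 131 in naive cells. The difference of 93.9 stayed just under the minimum of 100, so Fosl2 was not called, at a log2 ratio of 0.78. Its second probe set had 135 in activated cells and 86.3 in naive cells, a ratio in the same direction with a lower bound of 0.43 on the log2 scale. With a difference minimum of 50, or with loess scaling (log2 ratio of 0.85), Fosl2 was called higher.

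Fosb and Fosl1, the other 2 Fos genes, were not measurable on either array. Fosb, an immediate early gene like Fos, had 36.1 in activated cells and 52.4 in naive cells. Fosl1, which encodes Fra-1, had 47.9 in activated cells and 20.4 in naive cells by one probe set, and 18.1 in activated cells and 10.9 in naive cells by the other. Values this near background carry little information, and no ratio was formed from them.

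Among the Jun proteins, which can bind as pairs of their own, Jun was lower by one probe set and Junb and Jund were not called. Jun had an intensity of 116 in activated cells and 319 in naive cells by its brightest probe set, 2.74-fold lower in activated cells (log2 ratio of -1.46). The second probe set of Jun gave 122 in activated cells and 105 in naive cells, a log2 ratio of 0.21. The 2 probe sets therefore differed in direction, and the call for Jun rests on 1 of them. When each gene was given the median over its measured probe sets, the log2 ratio of Jun was -0.62 and it was no longer called. Between probe sets of the same gene, over 3404 genes with at least 2 of them above 100 on both arrays, the log2 ratio varied with a standard deviation of 0.39. The difference between the probe sets of Jun was larger than this.

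Junb, which encodes a Jun protein that pairs with BATF in T cells, had 1911 in activated cells and 2032 in naive cells. Its log2 ratio of -0.09 was the one nearest to 0 among the measured members. Jund, the Jun gene that many resting cells express, had 4877 in activated cells and 3645 in naive cells by its brightest probe set. The difference of 1232 was large, but the ratio of 1.34-fold was under the minimum of 1.4, at a log2 ratio of 0.42. A second, dim probe set of Jund had 112 in activated cells and 49.2 in naive cells, with a lower bound of 0.17 on the log2 scale. By their brightest probe sets both genes lay well above 100 in both groups, and neither passed the size rule under any of the 10 alternative settings.

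Both BATF genes were higher in activated cells, by very different amounts. Batf3, known in mice for the development of a class of dendritic cells that cross-present antigen, had an intensity of 987 in activated cells and 92.4 in naive cells. It was at least 9.87-fold higher (log2 ratio of 3.30, a lower bound). Batf, which is needed in mice for the expansion of effector CD8+ T cells, had 662 in activated cells and 441 in naive cells. It was 1.501-fold higher (log2 ratio of 0.59). Batf was already well above 100 in naive cells, whereas Batf3 was not. Each rests on 1 probe set. The log2 ratio of Batf was 0.486 with quantile normalization and 0.491 with loess scaling, only just past the 1.4-fold minimum. Batf was no longer called when the fold minimum was set to 2, at which 12.1% of all measured genes were higher and 9.19% lower. The test of a difference between Batf3 and Batf cannot be made with 1 array a group.

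**Figure D1:**
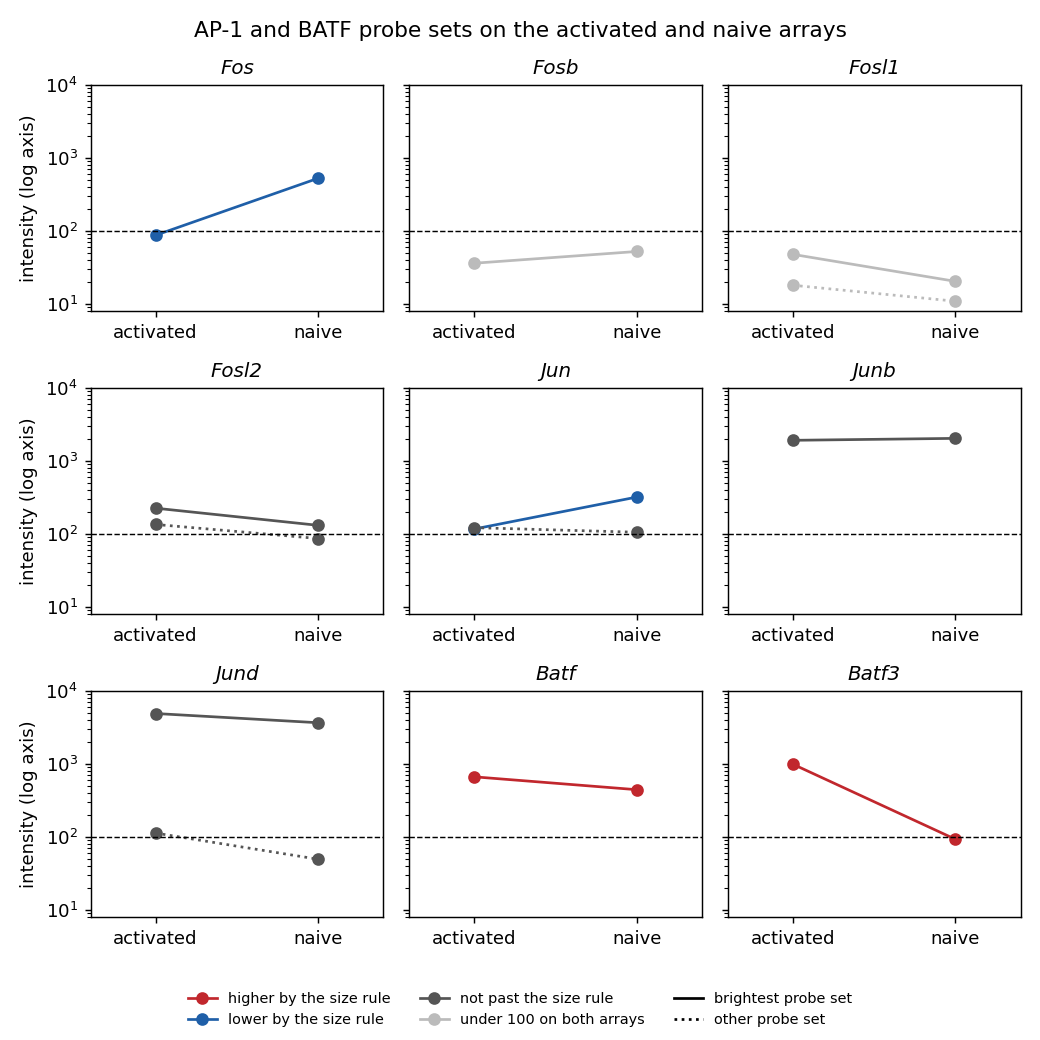
Intensity of each of the 13 probe sets (log axis) on the activated and the naive array, 1 panel per gene; solid lines join the values of the brightest probe set, dotted lines those of another, and the dashed line marks 100. Fos and Batf3 cross the dashed line in opposite directions, the 2 probe sets of Jun run in opposite directions, and Fosb and Fosl1 stay under 100.

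**Figure D2:**
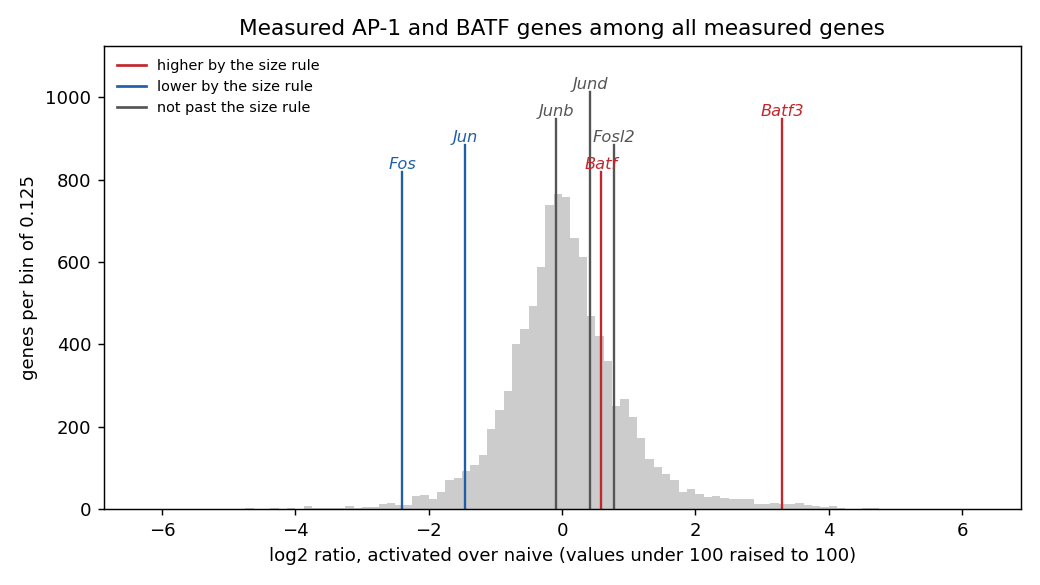
Number of genes per bin of log2 ratio (activated over naive) for all 9842 measured genes in grey, with a line at each of the 7 measured members, coloured by its call; line height only separates the names. Fos (-2.40) and Batf3 (3.30) lie in the tails, and Junb, Jund, Batf and Fosl2 lie between -0.09 and 0.78.

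The partners with which BATF and Fos proteins share composite DNA sites differed among themselves. Of 6 NFAT and IRF genes, all measured, 2 were called higher and 2 called lower, and their median was -0.02 on the log2 scale. The share of 33.3% in each direction stood against 23.7% higher and 20.6% lower over all measured genes. With a fold minimum of 2, 1 was higher and 0 lower. Irf4, the partner of BATF in activated T cells, had 1469 in activated cells and 72.4 in naive cells, at least 14.7-fold higher, and Irf8 had 380 in activated cells and 221 in naive cells, 1.72-fold higher. Nfatc1 was 1.77-fold lower, at 759 in activated cells and 1340 in naive cells, although its 4 measured probe sets lay between -0.82 and 1.51 in log2 ratio. Nfatc3 was 1.58-fold lower, and Nfatc2 (760 in activated and 971 in naive cells) and Nfat5 (639 and 513) were not called. Both IRF partners were thus higher, as Batf and Batf3 were, while 0 of the 4 NFAT genes were called higher by their brightest probe set.

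Among 35 other genes for leucine zipper proteins, which could pair with or compete against the family, 23 were measured, of which 8 were higher and 7 lower. These were 34.8% and 30.4%, against 23.7% and 20.6% of all measured genes. With a fold minimum of 2, 4 were higher and 4 lower. With a difference minimum or a floor of 200, 5 were higher and 6 lower. The median log2 ratio of the list was 0.12. Crem, a cyclic AMP response modulator with activating and repressing forms, had 873 in activated cells and 93.2 in naive cells, at least 8.73-fold higher, although its 3 measured probe sets lay between 0.22 and 3.13 in log2 ratio. Atf3, a stress-induced partner of Jun proteins, had 451 in activated cells and 9.97 in naive cells, at least 4.51-fold higher. Nfil3 was at least 2.96-fold higher and Atf6, a sensor of stress in the endoplasmic reticulum, at least 2.17-fold. Bach1, a repressor that pairs with small Maf proteins, had 123 in activated cells and 787 in naive cells, 6.41-fold lower. Dbp, a clock-controlled gene, was at least 4.35-fold lower, Ddit3 (CHOP) 3.06-fold and Maf at least 2.33-fold. By another measured probe set the log2 ratio was -0.69 for Bach1, -1.09 for Dbp, -0.02 for Maf and 0.10 for Atf6, so that the folds hold for the brightest probe set and not for the gene as a whole. Mafk (400.0 in activated and 402 in naive cells) and Nfe2l1 (217 and 213) lay nearest to no difference.

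Kinases and ternary complex factors that act ahead of Fos and Jun were lower for 6 of 16 measured genes (37.5%, against 20.6% of all measured genes). They were higher for 2 (12.5%, against 23.7%), with a median log2 ratio of -0.24. With the median of probe sets 3 were lower and the list median was -0.02, and with a fold minimum of 2 none was. Prkcq, the protein kinase C isoform of the T cell synapse, was 1.91-fold lower, at 1413 in activated cells and 2698 in naive cells. Rps6ka3 was 1.79-fold lower, and Elk4 and Srf, which together bind the serum response element of the Fos gene, were 1.75-fold and 1.67-fold lower. A second probe set gave 0.09 for Srf and -0.23 for Elk4 on the log2 scale, and the highest of 3 gave 0.15 for Rps6ka3. Map3k7 (TAK1) was 2.43-fold higher and Map2k3, a kinase of p38, 2.22-fold, although the probe sets of Map3k7 ranged from -0.45 to 1.33. Map2k2 (491 in activated and 504 in naive cells) and Map2k1 (1452 and 1323) were not called. Genes for turnover and co-regulators of AP-1 proteins were higher for 1 of 10 and lower for 2. These were 10% and 20%, against 23.7% and 20.6% of all measured genes. The higher one was Cops5, first described as a Jun co-activator, at 1763 in activated cells and 699.9 in naive cells (2.52-fold). The lower ones were the co-activator Crebbp (1.99-fold) and Itch, a ubiquitin ligase for Jun and Junb (1.54-fold, with -0.03 in log2 ratio by its other probe set). Ncoa1 (496 in activated and 500.2 in naive cells) and Smarcd1 (126 and 137) were not called, and the list median was -0.13.

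Immediate early genes, the class to which Fos, Fosb, Jun and Junb belong, split evenly: of 22 measured, 6 were called higher and 6 called lower, and the list median was -0.03 on the log2 scale. The share of 27.3% in each direction lay near that over all measured genes. Lower ones included Socs3, a feedback inhibitor of cytokine signalling (219.9 in activated and 1887 in naive cells, 8.58-fold), Gadd45b (4.07-fold), Zfp36, which destabilises AU-rich messages (3.80-fold), and Ier5 (2.86-fold). Higher ones included the orphan nuclear receptor Nr4a3 (1285 in activated and 138 in naive cells, 9.30-fold), Atf3 as above, Egr2 (2.56-fold) and Egr3 (2.18-fold). Other probe sets gave log2 ratios down to 0.21 for Egr3 and, among 3, up to -0.12 for Ier5. Klf6 (904 in activated and 834 in naive cells) and Nr4a1 (774 and 872) were not called.

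Of 20 T cell genes for which AP-1, NFAT:AP-1 or BATF:IRF4 sites have been described, 12 were measured, and 7 of these (58.3%) were higher and 0 lower. Over all measured genes 23.7% were higher and 20.6% lower. The median log2 ratio of the list was 2.77, against 0.01 over all measured genes. It was 0.95 with a floor of 50, at which more of the list counted as measured, and 2.24 with the median of probe sets. Gzmb (10896 in activated and 282 in naive cells, 38.6-fold higher), Ifng (at least 32.8-fold), Pdcd1 (at least 16.0-fold) and Ctla4 (15.03-fold) had the largest ratios. The other 8, among them the classical NFAT:AP-1 genes Il2 (70.8 in activated and 9.34 in naive cells) and Csf2 (59.7 and 28.2), lay under 100 on both arrays. Il10 (135 in activated and 132 in naive cells) and Ccnd1 (71.7 and 107) were not called. The list was drawn up with results of these data known, so its direction is no independent evidence.

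**Figure D3:**
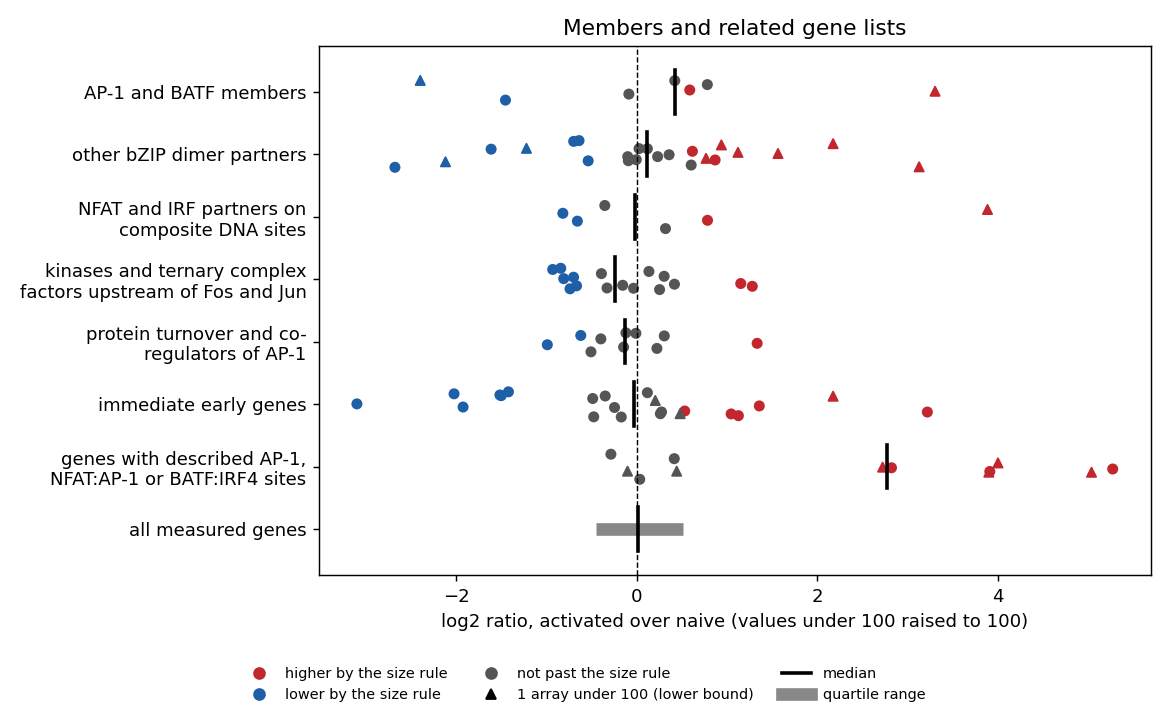
Log2 ratio (activated over naive) of each measured gene, by gene list, coloured by call, with triangles where 1 array was under 100 and black bars at the medians; the grey bar spans the quartiles of all measured genes. The members spread from -2.40 to 3.30 around a median of 0.42, and the genes with described sites have a median of 2.77.

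The arrays also differed in transcripts of other cells, and these differences run beside those of the family. Markers of CD8 T cells were present on both arrays, with Cd8a at 4860 in activated and 6020 in naive cells and Cd3e at 2724 and 3035. The background for every marker count here and below was 23.7% higher and 20.6% lower over all measured genes. Of 7 CD8 T cell markers, 3 were lower and 0 higher. The lower ones were Cd8b1 (2.17-fold), Thy1 (1.73-fold) and Cd247 (1.53-fold), and the 5 measured probe sets of Cd8a lay between -1.39 and -0.31 in log2 ratio. Of 9 dendritic cell markers with a probe set, 5 were measured, and 4 of these were lower and 0 higher. The 4 lower ones were H2-Aa, H2-Eb1, H2-Ab1 and Cd74. Single markers of the 9 had 13.4 to 405 in activated cells and 23.9 to 3003 in naive cells. Among them H2-Aa (83.0 in activated and 2007 in naive cells, at least 20.1-fold lower by its brightest probe set) and H2-Eb1 (at least 13.9-fold lower) had the largest ratios. Xcr1, Zbtb46, Flt3 and Siglech, which define dendritic cells more narrowly, were under 100 on both arrays. The part of dendritic cells in the values of Batf3 was not tested. The 4 measured probe sets of H2-Aa lay between -4.33 and -0.03 in log2 ratio. B cells also carry the class II genes H2-Aa and H2-Eb1.

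Of 6 B cell markers with a probe set, 4 were measured. In the direction of Fos and Jun, 2 of these 4 were lower, against 20.6% of all measured genes. The 2 were Cd79b (at least 2.93-fold) and Cd22 (1.52-fold). Single B cell markers had 25.4 to 261 in activated cells and 44.7 to 397 in naive cells. Of 7 monocyte and macrophage markers, 3 were measured and all 3 were lower, Mpeg1 (at least 2.93-fold) and Csf1r (1.86-fold, with -0.20 in log2 ratio by another probe set) among them. Single markers of this list had 8.22 to 345 in activated cells and 42.1 to 642 in naive cells. Of 4 plasma cell markers, 3 were measured, and these differed in direction. Jchain was at least 17.7-fold lower and Mzb1 1.84-fold lower, while Sdc1 was at least 3.01-fold higher by the brighter of 2 probe sets. Single plasma cell markers had 31.1 to 301 in activated cells and 25.7 to 1768 in naive cells. Of 3 erythroid markers with a probe set, Hbb-b2 was lower by its brightest probe set, at 1 in activated and 6852 in naive cells, while its other measured one gave a log2 ratio of -0.18. Hba-a1 (45.9 in activated and 50.9 in naive cells) was under 100 on both arrays, and Alas2 (1 and 127) was not called. Klre1 of the NK cell list was 1.85-fold lower, while Ncr1 (27.8 in activated and 54.7 in naive cells) was under 100 on both arrays. Pecam1 of the stromal and endothelial list was 2.54-fold lower, and the other 4 markers of that list were under 100 on both arrays. Of 4 CD4 T cell, 6 neutrophil and 4 platelet markers, only 1, 0 and 2 were measured, and 0 of these were called. The part of these cells in the lower values of Fos and Jun was not tested, and fewer cells of a type and less RNA per cell cannot be told apart in pooled RNA. Between the arrays, RNA integrity as read from the 3′ to 5′ signal ratio of the Actb controls was 1.11 on the activated and 1.20 on the naive array. The same ratio of the Gapdh controls was 0.86 on the activated and 0.85 on the naive array.

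**Figure D4:**
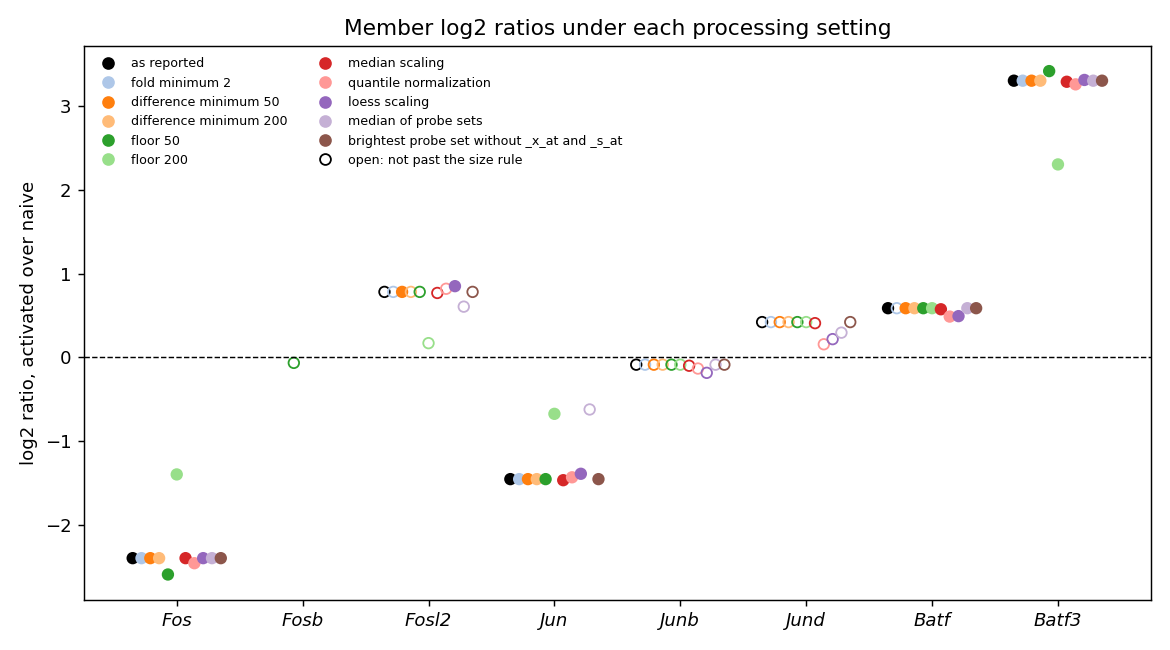
Log2 ratio (activated over naive) of each measured member as reported (black) and under each of the 10 alternative settings (colours); filled points pass the size rule and open points do not. Fos and Batf3 are filled throughout, Batf is open at a fold minimum of 2, Jun is open for the median of its probe sets, and Fosl2 is filled in 2 settings.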

How the data were processed

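The authors deposited 1 intensity per probe set and array on a linear scale. Per the series' design text, these are model-based values from the perfect-match minus mismatch model of dChip, normalized between the arrays with its invariant set method. That model can return values near background that carry little information, and the lowest values have no useful order. The submitters' processing notes name GCOS, version 1.3 in the design text, for present calls, which were not used here. No version of dChip is stated. RNA was pooled from 4 experiments for each of the 2 arrays, per the labels' protocols, so that spread between experiments cannot be seen.

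Of 45101 probe sets, 64 controls were left out. The platform's annotation gave 34945 of the others 1 symbol, 932 several and 9160 none, and all 9 member symbols were unchanged in the RefSeq gene table of GRCm38.p6. The fold minimum of 1.4 and difference of 100 come from the study's own rule, which also used present calls and confidence bounds. The floor of 100 was added here. Calculations used Python 3.11.15, numpy 2.4.6 and pandas 2.3.3. The size rule was also run on simulated data, with larger changes in bright genes only. That run does not bear on calls near 1.4-fold or on values near 100. The members, 6 gene lists and 11 marker lists were chosen with earlier results of these data known. Named were all members, per list up to 4 higher, 4 lower and 2 nearest to 0, per other cell type up to 2 markers past the rule, and nearest genes by level for 2 members, which are not given because levels of different probe sets cannot be compared. Genes named outside this rule, such as Il2, Csf2, Xcr1, Zbtb46, Flt3, Siglech, Cd8b1, Thy1, Cd247, Hba-a1 and Alas2, were picked with their values in view. So were Ncr1, H2-Ab1, Cd74 and Mzb1. Listed genes that no single-symbol probe set named were not analysed here. Alternatives were fold minimum 2, a difference minimum or floor of 50 or 200, median, quantile or loess scaling, and other choices of probe set. No test between the groups was run.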

Additional observations from a re-analysis of the deposited data

How the results depend on the processing

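No paired analysis was possible because each group had 1 array and the labels give no shared replicate numbers, and no array could be left out. With no replicates, a log2 ratio was counted as moved when it changed by more than the standard deviation of 0.39 between probe sets of a gene. Over the 10 alternatives, the number of members higher stayed at 2 or 3 except with a fold minimum of 2, where it was 1 because Batf was no longer called. The number lower stayed at 2 except with the median of probe sets, where it was 1 because Jun (-0.62) was no longer called. With a floor of 200 the bounds shrank by construction, to a log2 ratio of -1.40 for Fos and 2.30 for Batf3, and the ratios of Jun (-0.68) and Fosl2 (0.17) became bounds. With a floor of 50, Fosb became measured, at -0.07 and not called. No member's log2 ratio changed sign, but most of the 10 alternatives could not have changed one. Fold and difference minima leave the ratio as it is, and a floor cannot turn its sign. Only the scalings and the median of probe sets could have done so. The second probe set of Jun, taken alone, gave 0.21. Over the 6 related lists together, 25 of 88 measured genes were higher and 23 lower, against 23.7% and 20.6% of all measured genes. With a fold minimum of 2 the number lower was 10. The median of all measured genes stayed within -0.02 and 0.03 under every setting.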
